A study of Mus musculus with 9 samples.

Results

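Matricellular and wound matrix proteins were followed through 9 single-cell libraries of the mouse knee by reading 8 genes, of 54534 listed in the matrices. The genes were taken by name and not by a rule on their values, but with earlier results of these data known. They are *Cthrc1*, *Postn*, *Tnc*, *Sparc*, *Thbs1*, *Thbs2*, *Thbs3* and *Fn1*, and all 8 passed the filter on low counts in the sublining and lining fibroblasts described below. *Cthrc1*, *Postn* and *Sparc* had already been named by the study as higher after injury on these libraries, so their direction here is not independent evidence. The question was which cell types carried the change in each gene after joint injury.

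All mice carried *Gdf5*-Cre, a Cre-dependent tdTomato reporter (Tom) and the *Pdgfrα*-H2BGFP nuclear reporter (GFP), and were 11 weeks (steady state) and 12 weeks old (injured). *Gdf5*-Cre is active in the joint interzone of the embryo, so Tom marks cells descended from it and says nothing about *Gdf5* in the adult. Knees were digested with collagenase and sorted into Tom+ cells (*Gdf5* lineage) and Tom-GFP+ cells, which carry the fibroblast reporter without the lineage mark. The groups were Tom+ steady state (2 libraries), Tom-GFP+ steady state (1 library), Tom+ injured (4 libraries) and Tom-GFP+ injured (2 libraries). Injured knees had an arthrotomy and a full-thickness scratch of the cartilage in the trochlear groove 6 days earlier, and steady-state knees had no operation. No sham-operated group was analysed here, so the cartilage wound and the opening of the joint cannot be told apart.

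The libraries held 277 to 826 cells after filtering, 4788 of 5161 barcodes in all, at a median of 8050.5 to 18567 unique molecular identifiers (UMIs) per cell. Injured libraries were deeper than steady-state ones. At most 2 barcodes were shared by any pair of libraries. Cells were assigned to types by counting marker genes, none of which is among the 8 genes: 756 lining fibroblasts, 2625 sublining fibroblasts (of which 512 were universal fibroblasts, the *Pi16*+ *Dpp4*+ cells), 277 *Prg4*+ cells outside the lining gate, 243 osteoblast-lineage, 137 tenocyte-lineage, 142 chondrocyte-lineage and 121 mural cells, with 372 stromal cells unassigned. The classes carried their defining genes. In lining fibroblasts *Prg4* was at 30547 CPM (the UMIs of a gene in a sum of cells, scaled to 1000000 UMIs, here over all libraries of a state) in the steady state and 39139 after injury, against 5.52 and 6.89 for the sublining marker *Thy1*, while *Ibsp* in osteoblast-lineage cells was at 4452 and 5564. In injured chondrocyte-lineage cells *Ibsp* was higher still, at 9111 CPM. Other defining genes were lower after injury, such as *Clic5* in the lining (796 to 608 CPM) and *Alpl* in osteoblast-lineage cells (942 to 450 CPM). So were *Cd34* in other sublining fibroblasts (1038 to 362 CPM), *Pi16* in universal fibroblasts (3591 to 1890 CPM) and *Acta2* in mural cells (23952 to 6113 CPM). Fewer cells of a type and less RNA per cell cannot be told apart in sums over all stromal cells. The class borders are not sharp. At the lining gate 94 cells passed with the fewest markers allowed and 216 fell 1 marker short. The osteoblast gate was looser, with 170 of the 313 cells past it at its limit of 2 markers and 675 cells 1 marker short. Of the 137 tenocyte-lineage cells 93 fell in a cluster that also held 186 sublining fibroblasts, and no cluster was made up mainly of tenocyte-lineage cells.

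Matricellular proteins are secreted into the matrix without serving as its main scaffold. They bind collagen, growth factors and cell-surface receptors, are scarce in most resting adult tissues and are known for their return in wounds and fibrosis. In the joint, the lining is a thin layer of fibroblasts that make lubricin and hyaluronan, and the sublining beneath it is a loose connective tissue with vessels.

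*Cthrc1* (ENSMUSG00000054196) encodes a secreted protein with a short collagen-like repeat that is made in remodelling arteries and fibrotic tissue, and lies at chr15:39076932-39087121 on the plus strand (GRCm38, GENCODE annotation). *Postn* (ENSMUSG00000027750, chr3:54361109-54391037, plus strand) encodes periostin, a fasciclin-domain protein that helps collagen fibres to cross-link. *Tnc* (ENSMUSG00000028364, chr4:63959785-64047015, minus strand) encodes tenascin-C, a glycoprotein that loosens adhesion to fibronectin. *Sparc* (ENSMUSG00000018593, chr11:55394500-55423183, minus strand) encodes osteonectin, which binds collagen and calcium. *Thbs1* (ENSMUSG00000040152, chr2:118111876-118127133, plus strand) and *Thbs2* (ENSMUSG00000023885, chr17:14665500-14694235, minus strand) encode the trimeric thrombospondins, which inhibit the growth of vessels and of which the first activates latent TGF-β. *Thbs3* (ENSMUSG00000028047, chr3:89215180-89226837, plus strand) encodes a pentameric thrombospondin of cartilage and tendon. *Fn1* (ENSMUSG00000026193, chr1:71585520-71653200, minus strand) encodes fibronectin, the provisional matrix on which the others assemble. On the opposite strand, *Thbs3* overlaps the coding gene *Mtx1*, and *Tnc*, *Thbs1* and *Fn1* overlap non-coding or antisense genes. The strand setting of the counting is not given in the sources used here, so reads of such partners cannot be told apart from theirs.

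The 130 bases before the RefSeq start site (GRCm38.p6) are shown for *Postn*, *Tnc* and *Sparc*, which rose together in sublining fibroblasts, and for *Thbs2* and *Thbs3*, which did not pass the test there. Capitals mark matches to the TATA-box letters TATAAA or to CAGACA, a Smad-binding sequence, which read TTTATA and TGTCTG on the other strand. The stretches lie at chr3:54360977-54361106 (plus strand), chr4:64047016-64047145 (minus), chr11:55420081-55420210 (minus), chr17:14694263-14694392 (minus) and chr3:89215050-89215179 (plus), each written 5′ to 3′ on the gene's own strand.
Postn: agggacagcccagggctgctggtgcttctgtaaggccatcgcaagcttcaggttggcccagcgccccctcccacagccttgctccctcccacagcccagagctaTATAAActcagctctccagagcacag
Tnc: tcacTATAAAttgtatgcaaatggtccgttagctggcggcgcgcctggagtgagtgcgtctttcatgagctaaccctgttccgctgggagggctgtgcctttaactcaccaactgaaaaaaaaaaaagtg
Sparc: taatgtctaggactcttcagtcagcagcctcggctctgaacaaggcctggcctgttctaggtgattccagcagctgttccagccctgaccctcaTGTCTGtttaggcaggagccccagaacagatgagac
Thbs2: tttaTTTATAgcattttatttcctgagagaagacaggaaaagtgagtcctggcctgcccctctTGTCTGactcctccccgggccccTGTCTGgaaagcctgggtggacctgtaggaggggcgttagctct
Thbs3: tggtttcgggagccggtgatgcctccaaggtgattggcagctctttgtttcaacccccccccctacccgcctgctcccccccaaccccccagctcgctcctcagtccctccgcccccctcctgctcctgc
The *Postn* match to TATAAA spans positions -26 to -21 from the start site, and the *Tnc* match -126 to -121. *Sparc* holds CAGACA at -36 to -31, and its RefSeq start lies 3103 bases from the start of the GENCODE gene. *Thbs2* holds TATAAA on the other strand at -126 to -121 and CAGACA at -67 to -62 and -44 to -39, and *Thbs3* held neither, so both kinds of match occur with and without a call in the sublining. Over both strands of the 250 bases upstream, TATAAA occurs in 12.4% of 32851 promoters and CAGACA in 17.1%. The AP-1 letters TGANTCA (6.75% of promoters) and the TEAD letters CATTCC (12.6%) matched in none of these 5 promoters. *Cthrc1*, *Thbs1* and *Fn1* were not in the promoter table.

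Over all sorted stromal cells of the *Gdf5* lineage, 3 of the 8 genes rose after injury, by edgeR's quasi-likelihood test on UMIs summed per library at a false discovery rate of 0.05 over all genes, while 6.32% of the 14933 genes tested were called higher. *Cthrc1* went from 53.3 and 77.9 CPM in the steady-state libraries to 3233, 1710.1, 1464 and 1023 CPM in injured libraries 1 to 4 (log2 fold change 4.88, SE 0.68, adjusted p = 0.0078). *Postn* rose by 2.71 (SE 0.39, adjusted p = 0.00899) and *Sparc* by 0.68 (SE 0.19, adjusted p = 0.047) on the log2 scale. *Tnc* (1.84, adjusted p = 0.0521) and *Fn1* (0.88, adjusted p = 0.123) were higher in every injured library than in either steady-state one but did not pass. None of the 3 calls held when either of the steady-state libraries was left out, where *Cthrc1* had adjusted p = 0.0853 and 0.068. *Sparc* was no longer called under 13 of 19 alternatives.

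**Figure D1:**
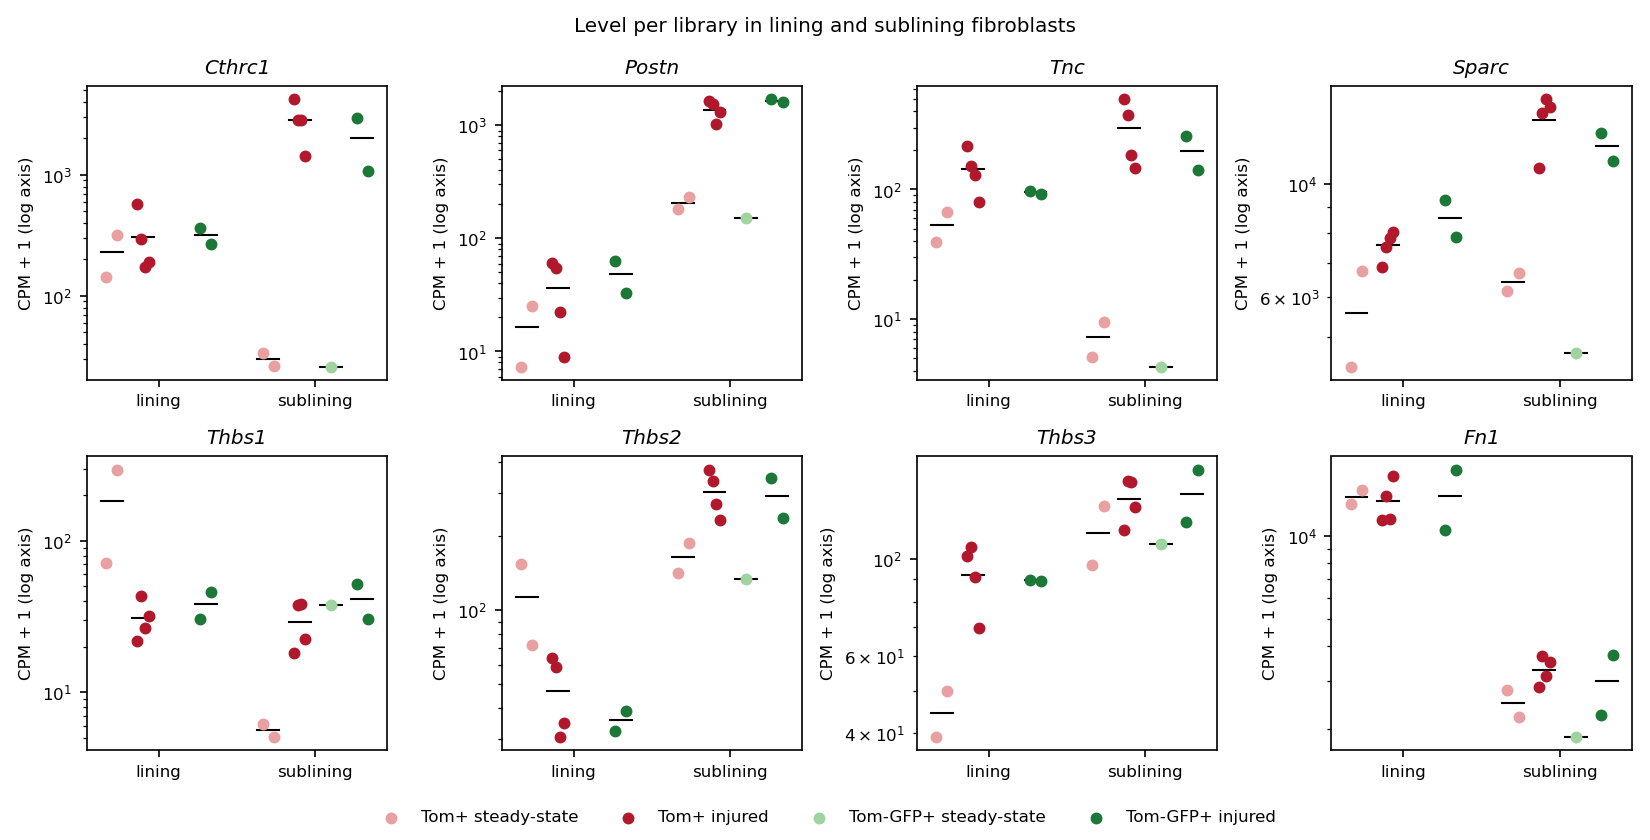
Level of each of the 8 genes (1 panel each) in CPM plus 1 (log axis) in lining and sublining fibroblasts, with a point for every library that holds at least 10 cells of the class, coloured by lineage and state, and a bar at the mean of each group. In sublining fibroblasts the injured libraries lie between 1081 and 4200.2 CPM for *Cthrc1*, against 25.1 to 32.9 CPM in the steady state, while in lining fibroblasts the Tom+ groups overlap.

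The sublining carried most of this change. In Tom+ sublining fibroblasts 5 of the 8 genes rose and none fell, where 4.83% of 12654 genes tested were called higher and 7.15% lower. The median log2 fold change of the 8 genes was 1.79, against -0.03 over all genes tested. In 7 of the 8 genes every injured Tom+ library was above both steady-state libraries, which held for 22.1% of all genes tested, and the exception was *Thbs3*.

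*Cthrc1* showed the largest change of the 8. Its level in Tom+ sublining fibroblasts was 32.9 and 25.5 CPM (64 and 69 UMIs) in the steady state and 4200.2, 2818, 2853 and 1424 CPM after injury. All 4 injured libraries were far above both steady-state ones, with a 96.8-fold ratio of the means (log2 fold change 6.55, SE 0.65, adjusted p = 0.00153). With every cell thinned to 5000 UMIs, the share of cells with a *Cthrc1* UMI went from 10.6% to 89.2% of sublining cells on average. Immune cells, which should lack the gene, had a *Cthrc1* UMI in 7.89% of 76 cells from injured libraries thinned alike. Background in the steady state could not be measured in this way, since the steady-state libraries held 5 immune cells, with 0 *Cthrc1* UMIs. Unthinned, the sublining shares were 14.998% and 94.4%.

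*Postn* was at 180.3 and 231 CPM in the steady state and at 1627, 1532, 1026 and 1303 CPM after injury. The injured libraries lay close together and rose 6.68-fold (log2 fold change 2.70, SE 0.26, adjusted p = 0.0015). Thinned shares of cells with a UMI were 22.05% and 79.3%, against 7.89% in immune cells of injured libraries.

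*Tnc* was close to absent from the resting sublining, at 4.11 and 8.49 CPM (8 and 23 UMIs), and reached 494, 373, 183 and 147 CPM after injury. No library of one state overlapped the other (47.4-fold, log2 fold change 5.48, SE 0.69, adjusted p = 0.0035), although the adjusted p was 0.054 without Tom+ steady-state library 1. Its thinned share of cells was 2.28% in the steady state and 44.1% after injury, against 2.63% in immune cells of injured libraries.

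*Sparc* was abundant in both states. It was at 6152 and 6679 CPM before and at 10764, 13774, 14669.7 and 14174 CPM after injury, a 2.08-fold rise (log2 fold change 1.02, SE 0.21, adjusted p = 0.0213). Every thinned sublining cell held a *Sparc* UMI in both states, so the change was one of amount per cell. The call was lost when the format of the gene list was added as a block (0.70). This format is older in the steady-state libraries and in injured library 1, so that estimate rests on injured library 1. The call was also lost without either steady-state library or injured library 3 (adjusted p = 0.0537).

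The thrombospondins differed from each other. *Thbs1* was low in the sublining throughout, at 5.14 and 4.06 CPM (10 and 11 UMIs) against 17.1, 36.8, 37.4 and 21.4 CPM after injury (log2 fold change 2.57, SE 0.47, adjusted p = 0.0143). Its thinned share of cells was 1.48% and 7.16%, against 18.4% in immune cells of injured libraries, whose summed *Thbs1* level was 174 CPM. With clusters in place of marker gates its change was 0.83 (adjusted p = 0.155), and without Tom+ steady-state library 1 or 2 the adjusted p was 0.0953 and 0.117. *Thbs2* was at 141 and 187 CPM before and 370.5, 335, 269 and 231 CPM after injury, and missed the threshold (0.83, SE 0.25, adjusted p = 0.0615). With the gene list format as a block its change was 1.12, an estimate that rests on injured library 1, the highest of the 4. It passed by DESeq2 and with the replicate block (1.09, adjusted p = 0.0332). In that block injured libraries 3 and 4, the lowest, add nothing, since no steady-state library shares their number. *Thbs3* was at 96.1 and 131 CPM before and 116 to 149.8 CPM after injury, with overlapping groups (0.22, adjusted p = 0.507).

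*Fn1* in the sublining was at 2769.6 and 2213 CPM in the steady state and at 2851, 3689.7, 3122 and 3496 CPM after injury. The lowest injured library lay just above the higher steady-state one, and the change did not pass (0.36, SE 0.25, adjusted p = 0.366).

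Markers of immune and endothelial cells were scarce in these sublining sums. The 7 immune markers summed to 3.69 to 24.7 CPM in Tom+ steady-state and 4.65 to 43.9 CPM in Tom+ injured libraries, with *Lyz2* making up nearly all of it, and *Ptprc* was at 0 CPM in the pooled sublining sums of each state. The 6 endothelial markers summed to 1.03 to 3.07 CPM.

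Within the sublining, both the universal fibroblasts and the remaining cells changed. In Tom+ universal fibroblasts, 3 of the 8 genes rose where 1.34% of 7734 genes tested were called higher. *Cthrc1* went from 9.71 and 28.8 CPM to 4717, 1252, 1632 and 1645 CPM (log2 fold change 6.78, adjusted p = 0.000828), *Sparc* rose by 1.44 (adjusted p = 0.00476) and *Postn* by 1.76 (adjusted p = 0.00705). *Tnc* in universal fibroblasts rested on 1 steady-state UMI and gave a ratio of 63.7 (95% counting interval 11.1 to 2548, adjusted p = 0.0748). Its injured libraries ranged from 1.69 to 109 CPM. In the other sublining fibroblasts 5 genes rose, where 4.75% of 12346 were called higher, with *Postn* at 3.12, *Cthrc1* at 6.43, *Tnc* at 5.13, *Thbs1* at 2.27 and *Sparc* at 0.87 on the log2 scale.

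The size of the change differed between these parts of the sublining for *Postn* alone, by a test of class and state with library as a block. It was 1.31 lower on the log2 scale in universal than in other sublining fibroblasts (log2 difference -1.31, SE 0.23, adjusted p = 0.00576), where 0.228% of 9660 genes tested were called lower. Universal fibroblasts held more *Postn* in the steady state, 322 ± 64.9 CPM against 156 ± 14.4 CPM (SD, n = 2 libraries), and after injury 1096 ± 285 against 1386 ± 276 CPM (SD, n = 4). With stricter gates, and without Tom+ steady-state library 2, none of the 8 genes was called in this comparison.

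Of the 8 genes 1 rose and 1 fell in Tom+ lining fibroblasts, where 1.15% of 9726 genes tested were called higher and 2.49% lower. The steady state rests on 21 and 35 cells, against 121 to 210 cells in the injured libraries. *Cthrc1*, at 143 and 314 CPM in the steady state, was already above its resting sublining level, and after injury it was at 569, 295, 171 and 189 CPM, with overlapping groups (0.43, SE 0.46, adjusted p = 0.667). Its thinned share of cells was 18.6% before and 41.1% after injury.

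*Thbs1* fell in the lining by 2.59 on the log2 scale (SE 0.43, adjusted p = 0.0144). It was at 70.0 and 294 CPM (22 and 156 UMIs) before and at 20.8, 42.2, 25.7 and 30.9 CPM after injury. All injured libraries were below both steady-state ones, but these stood far from each other, and without the second of them the change was -1.12 (adjusted p = 0.315). With clusters in place of gates it was -1.78 (adjusted p = 0.0707). With the gene list format as a block it was -3.16 and not called, an estimate that rests on injured library 1. *Thbs1* is an early-response gene in many cells, so early-response genes that tissue digestion can induce were read beside it. The 9 fixed genes of that list summed to 6200.4 to 6726 CPM in steady-state and 2888 to 6053 CPM in injured lining libraries. Of the 9, *Fosb* (-1.27, adjusted p = 0.0282) and *Egr1* (-1.22, adjusted p = 0.0211) fell and the other 7 were not called. In Tom+ sublining fibroblasts, where *Thbs1* rose, the 9 genes summed to 5246 to 5699 CPM before and 2001 to 6174 CPM after injury. The part of these genes in the change of *Thbs1* was not tested.

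*Thbs3* rose in the lining, from 38.2 and 48.9 CPM (12 and 26 UMIs) to 101, 106, 89.9 and 68.5 CPM (1.09, SE 0.25, adjusted p = 0.0406). Its groups did not overlap, but the call was lost under 9 of 18 alternatives. *Tnc*, at 38.2 and 65.9 CPM before and 215, 152, 128 and 79.2 CPM after injury, missed the threshold (1.45, SE 0.39, adjusted p = 0.0664) and passed with the replicate block (1.80, adjusted p = 0.00229). *Postn* was at no more than 59.8 CPM in any Tom+ lining library (1.11, adjusted p = 0.534). It passed only with the replicate block (1.82, adjusted p = 0.0286) and with no filter on low counts (adjusted p = 0.032). The replicate block links different mice, and injured libraries 3 and 4 share their number with no steady-state library. They therefore add nothing to the effect in that block. They were the lowest injured libraries for both genes, with *Postn* at 21.5 and 7.97 CPM. *Thbs2* (-1.18, adjusted p = 0.102) and *Sparc* (0.50, adjusted p = 0.174) were not called.

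*Fn1* was highest in the lining in both states, at 13132 and 14676 CPM before and 11464, 14003, 11549 and 16580.0 CPM after injury. The groups overlapped and the estimated change was 0.0014 (SE 0.24, adjusted p = 0.999).

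The difference between the classes was tested directly. The injury effect was lower in lining than in sublining fibroblasts for 4 of the 8 genes, where 0.605% of 12070 genes tested were called lower. Of these, *Thbs1* and *Thbs2* had lower mean levels after injury in the lining and higher ones in the sublining. On the log2 scale the difference was -6.09 for *Cthrc1* (SE 0.44, adjusted p = 7.76e-05), -5.09 for *Thbs1* (adjusted p = 0.000663), -3.87 for *Tnc* (adjusted p = 0.000663) and -1.96 for *Thbs2* (adjusted p = 0.0292). It was not called for *Postn* (-1.65, SE 0.89, adjusted p = 0.471), whose lining counts were few. Without Tom+ steady-state library 2, or with clusters in place of gates, 2 of the 4 calls were left.

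**Figure D2:**
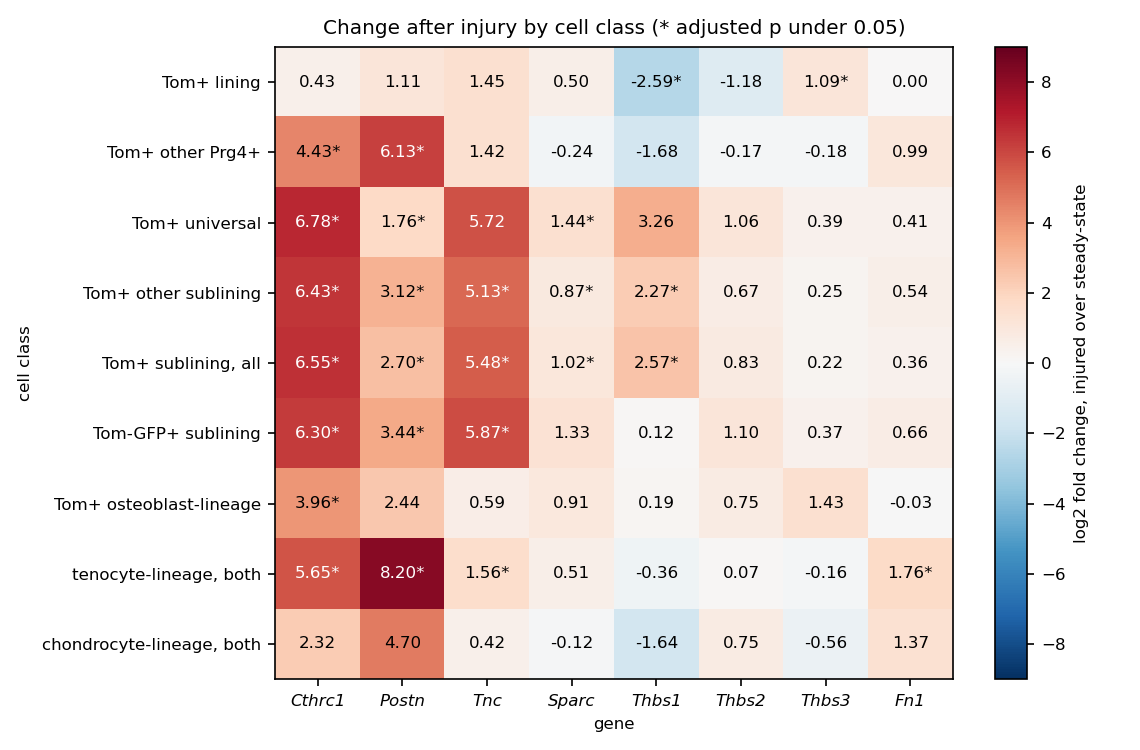
Fitted log2 fold change after injury (colour and printed value) for each of the 8 genes (columns) in each class fitted (rows), where an asterisk marks an adjusted p under 0.05 by edgeR. *Cthrc1* is called in every row but the lining (0.43) and the chondrocyte-lineage cells (2.32), and *Thbs1* has opposite signs in all sublining (2.57) and lining fibroblasts (-2.59) of the Tom+ lineage.

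*Prg4*+ cells outside the lining gate also gained *Cthrc1* and *Postn*. These were 2 of the 8 genes, where 0.518% of 6173 genes tested were called higher. The class was mixed by cluster. Over all libraries, clusters named lining held 81, 1 and 1 of its cells. Clusters named for other sublining fibroblasts together held more, at 49, 33, 24, 23, 19, 12 and 7 cells. Whether the gain lay in the cells of these sublining clusters was not tested. *Cthrc1* was at 11.9 and 83.1 CPM (1 and 18 UMIs) before and at 2440.2, 965, 942 and 1249 CPM after injury (4.43, SE 0.68, adjusted p = 0.0166). *Postn* had 0 and 2 UMIs in the steady state and 1053, 359.5, 399 and 363 CPM after injury, a ratio of 82.1 (95% counting interval 22.7 to 679, adjusted p = 0.0166). The steady state holds 10 and 28 of these cells, and without either library no gene of the 8 was called. Against sublining fibroblasts, the injury effect was lower for *Thbs1* (-4.22, adjusted p = 0.00117), *Tnc* (-3.62, adjusted p = 0.00657) and *Sparc* (-1.003, adjusted p = 0.027), where 0.369% of 10583 genes tested were called lower. Mean *Thbs1* in these cells went down, from 160 ± 41.1 CPM (SD, n = 2) to 60.7 ± 52.6 CPM (SD, n = 4), with overlapping groups. *Sparc* in these cells was at 12099.7 ± 3801 CPM before (SD, n = 2) and 11681 ± 954 CPM after injury (SD, n = 4), and *Tnc* was already at 250.2 and 69.2 CPM at rest.

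In osteoblast-lineage cells of the Tom+ lineage 1 of the 8 genes rose, *Cthrc1*, where 0.318% of 5029 genes tested were called higher. It was at 78.9 and 77.9 CPM before and at 1438, 1339 and 849.8 CPM in the 3 injured libraries with at least 10 such cells (3.96, SE 0.39, adjusted p = 0.00114). Without Tom+ steady-state library 1 it was not called. *Tnc* was high at rest in these cells, at 369 and 709 CPM, and at 788, 976 and 647 CPM after injury (0.59, adjusted p = 0.5). Its injury effect was 4.93 lower than in the sublining (log2 difference -4.93, adjusted p = 0.00155), as was that of *Cthrc1* (-2.47, adjusted p = 0.0216), where 0.183% of 10381 genes tested were called lower. *Postn* (2.44, adjusted p = 0.145) and *Sparc* (0.91, adjusted p = 0.302) were not called, but *Postn* was with stricter gates (4.20, adjusted p = 0.0143) and with clusters (3.45, adjusted p = 0.0194), and *Sparc* was at 11597 and 10869 CPM before and 14563 to 27223 CPM after injury.

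Among Tom+ injured libraries, tenocyte-lineage cells had the highest mean *Postn* and *Cthrc1* levels of the 7 classes compared. Too few steady-state libraries held 10 such Tom+ cells, so both lineages were fitted together, a choice made once the cell numbers were known. In that fit 4 of the 8 genes rose, where 4.64% of 3380 genes tested were called higher. *Postn* had 3 UMIs (19.1 CPM) in the Tom+ library at rest and 0 UMIs in the Tom-GFP+ one, and was at 3924, 3140.1 and 3118 CPM in Tom+ and 3242 and 2750.0 CPM in Tom-GFP+ injured libraries. The ratio was 348 (95% counting interval 119 to 1689, adjusted p = 1.17e-05). *Cthrc1* went from 76.4 and 39.8 CPM to 1515 to 4259.5 CPM (5.65, SE 0.40, adjusted p = 2.23e-05). *Fn1* rose by 1.76 (adjusted p = 0.0155) and *Tnc* by 1.56 (adjusted p = 0.0447), both from steady-state levels that every injured library in the fit exceeded. Tom+ injured library 3 held 5 such cells and was not in the fit. Its *Postn* was at 105 CPM (6 UMIs), *Tnc* at 52.7 CPM (3 UMIs) and *Fn1* at 1284 CPM (73 UMIs).

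In chondrocyte-lineage cells none of the 8 genes passed in the fit over both lineages. Of 3646 genes 0.0274% were called in either direction, 323 had an unadjusted p under 0.05 and DESeq2 called 62. *Cthrc1* ranged from 82.6 to 1595 CPM over the Tom+ injured libraries, with library 3 near the steady-state 92.6 CPM. *Fn1*, also not called, was at 861 CPM in the Tom+ steady-state library and at 3018 to 5341 CPM in the 4 Tom+ injured ones. In Tom-GFP+ cells it was at 2876 CPM before and 3879 CPM after injury (1 library each). *Thbs1* was at its highest in resting chondrocyte-lineage cells, at 499 and 956 CPM in the Tom+ and Tom-GFP+ libraries, and at 105, 72.0, 454 and 159.9 CPM in Tom+ injured ones (-1.64, adjusted p = 0.54). Mural cells, the smooth muscle cells and pericytes of vessels, had 1 steady-state library with 10 or more cells (11 cells) and could not be tested. There *Cthrc1* and *Tnc* were at 0 UMIs and after injury at 60.2 to 281 CPM and 50.2 to 227 CPM, at least 3.97-fold and 3.03-fold higher against 3 counts in that library. *Fn1* in mural cells was at 110.4 CPM (7 UMIs) before and at 512, 4099, 3686 and 908 CPM after injury, 20.8-fold higher on average. *Sparc* was at 1419.8 CPM before and 5182 to 9696 CPM after injury (5.13-fold), and *Postn* at 189 CPM (12 UMIs) before and 271 to 862 CPM after (3.42-fold). All 4 injured libraries were above the steady-state one for these 3 genes, which with 1 such library was not tested. The lining gene *Prg4*, pooled over libraries, was at 10.4 CPM in steady-state and 2251 CPM in injured mural cells. In the cluster named mural it was at 12.0 and 35.5 CPM. Pooled *Fn1* in that cluster was at 120 CPM before and 440 CPM after injury, a smaller change than with the gate. *Sparc* there was at 1675 and 6663 CPM and *Postn* at 181 and 873 CPM.

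The order of the classes differed by gene. Among Tom+ injured libraries, *Cthrc1* was highest in tenocyte-lineage cells (3999.6 ± 262 CPM, SD, n = 3) and then in sublining fibroblasts (2824 ± 1134, n = 4), which overlap. *Prg4*+ (1399 ± 708), osteoblast-lineage (1209 ± 315) and chondrocyte-lineage cells (984 ± 644) did not differ beyond their spread, and lining (306 ± 184) and mural cells (188 ± 92.7) came last. *Postn* was highest in tenocyte-lineage cells (3394 ± 459 CPM, n = 3), above sublining fibroblasts (1372 ± 268), and lowest in the lining (35.8 ± 25.02), below the range of every other class but chondrocyte-lineage cells, 1 library of which had 0 UMIs. *Tnc* was highest in osteoblast-lineage cells (804 ± 165 CPM, n = 3) and tenocyte-lineage cells (632 ± 162), which overlap, and *Thbs1* in mural cells (361 ± 223 CPM), overlapping chondrocyte-lineage cells (198 ± 175). The unassigned stromal cells were left out of this order but changed too. In them mean *Cthrc1* went from 94.8 to 2177 ± 1008 CPM, *Postn* from 21.0 to 1480 ± 872 and *Tnc* from 232 to 466 ± 301 (SD, n = 4 injured).

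**Figure D3:**
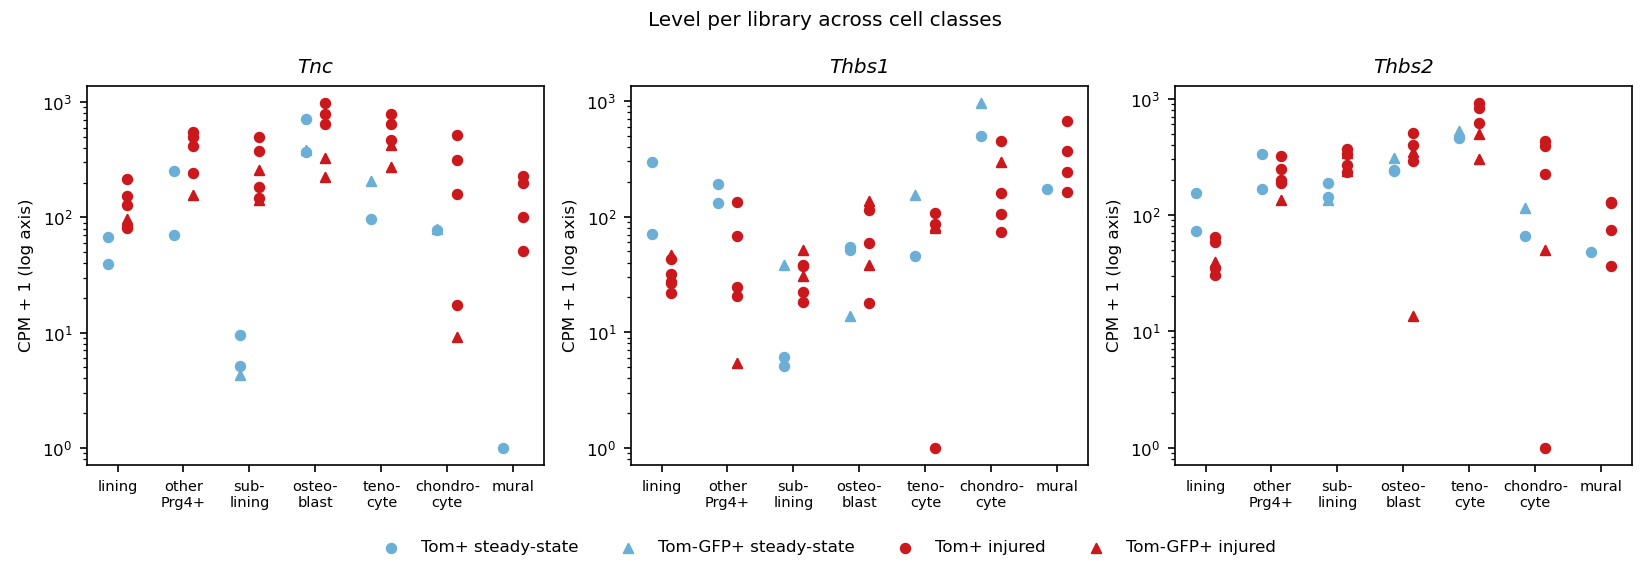
Level of *Tnc*, *Thbs1* and *Thbs2* in CPM plus 1 (log axis) across 7 cell classes, with a point for every library that holds at least 10 cells of the class, blue for steady state and red for injured, circles for Tom+ and triangles for Tom-GFP+. Steady-state *Tnc* in sublining fibroblasts lies between 3.32 and 8.49 CPM while osteoblast-lineage cells are at 369 to 709 CPM, and steady-state *Thbs1* is highest in chondrocyte-lineage cells (499 and 956 CPM).

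To see how much each class contributed to the change over all Tom+ stromal cells, the difference of mean CPM was split, over the 8 pairs of an injured and a steady-state library, into the change of level within each class and the change in each class's share of UMIs. This split is a description with no test, and a large class can give a large part through its size. The sublining held 68.8% and 57.2% of Tom+ stromal UMIs in the steady state. After injury it held 63.1%, 39.7%, 44.5% and 43.0% in libraries 1 to 4. *Cthrc1* rose by 1792 CPM over the stroma, of which 1542 CPM (86.1%) came from levels within the sublining and 8.92 CPM (0.498%) from the lining. For *Postn* the sublining gave 637 of 789.996 CPM (80.6%) and tenocyte-lineage cells 68.3 CPM (8.64%), though these were at most 3.97% of the stromal cells of any Tom+ library. For *Tnc* the sublining gave 148 of 205 CPM (72.2%) and the lining 17.1 CPM (8.32%). For *Sparc* it gave 3532 of 4200.2 CPM (84.1%), osteoblast-lineage cells gave 929 CPM, and the shift of class shares took away 1350 CPM.

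*Fn1* split differently. Of its change of 2731 CPM, 862 CPM (31.6%) came from levels within classes and 1869 CPM (68.4%) from class shares, of which the larger lining share gave 1527 CPM (55.9%). Lining fibroblasts made up 6.42% and 6.45% of Tom+ stromal cells in the steady state and 16.01%, 25.7%, 36.2% and 21.5% after injury, and 11.1% and 11.2% against 15.4% to 42.5% of UMIs. These shares are of cells recovered by digestion and sorting. The part within the sublining was 553 CPM with gates and 822 CPM with clusters in their place.

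For *Thbs1* the net change was -5.92 CPM, made up of -26.3 CPM from levels within classes and 20.4 CPM from class shares. Among levels, the lining gave -30.6 CPM and chondrocyte-lineage cells -13.1 CPM, while the sublining gave 11.3 CPM and mural cells 4.95 CPM. *Thbs2* was similar, with 67.2 CPM added by the sublining and 13.9 CPM taken away by the lining, for a net 64.8 CPM. *Thbs3* gained 14.6 CPM in the sublining and 9.51 CPM in the lining, of 19.7 CPM in all.

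**Figure D4:**
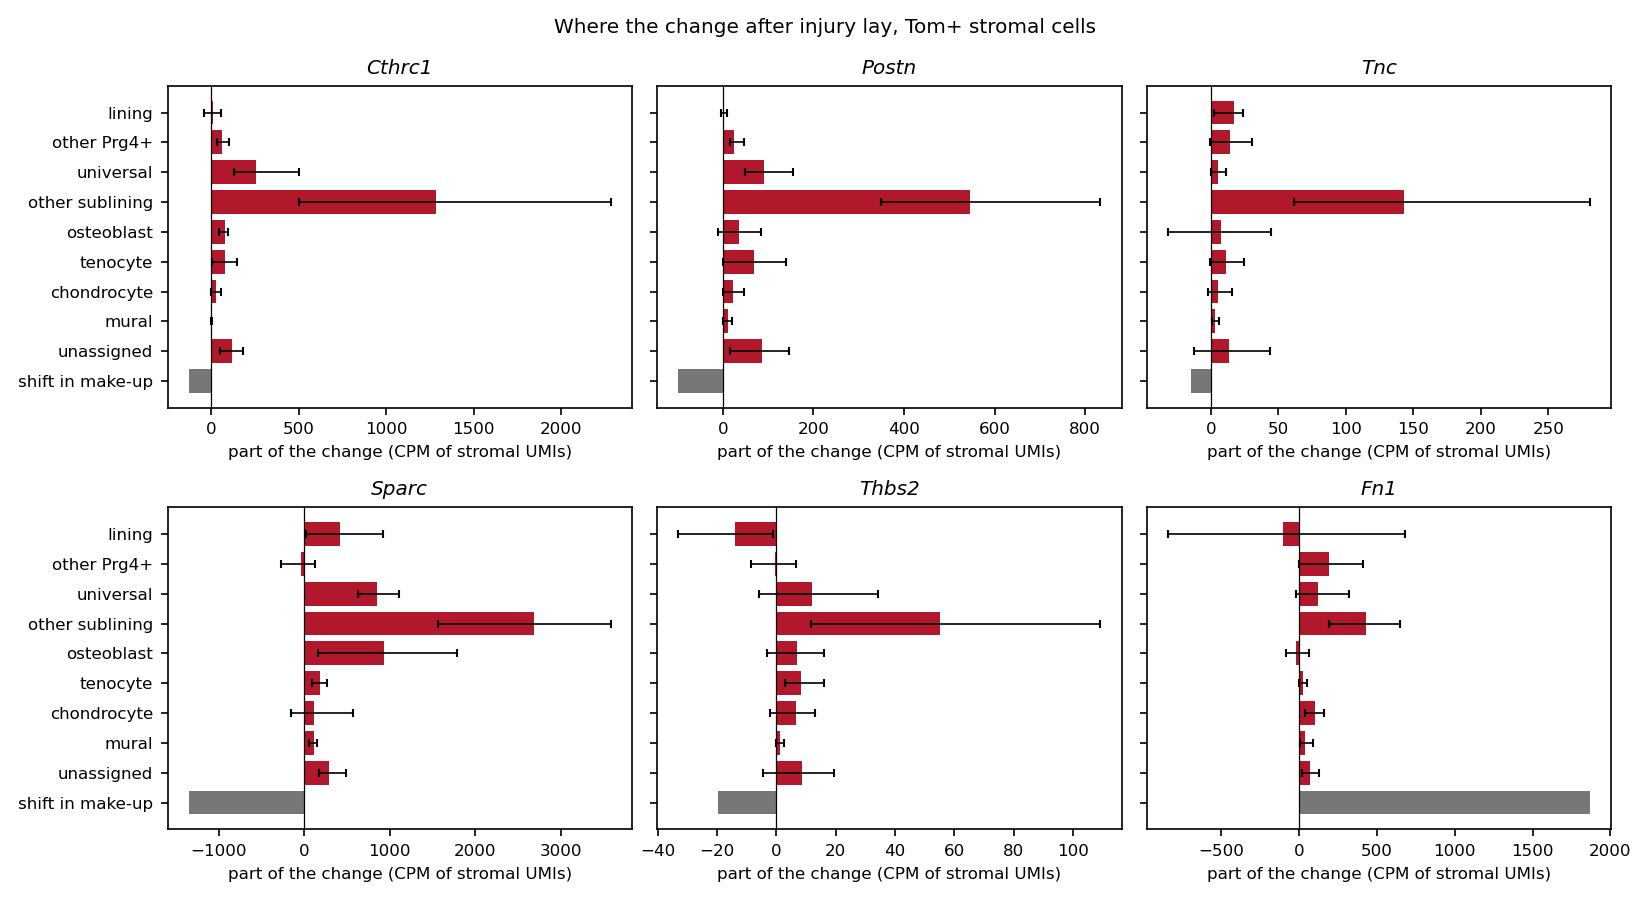
Part of the change after injury over all Tom+ stromal cells, in CPM of stromal UMIs, that lay in the level within each class (red bars, mean over 8 pairs of libraries, lines from the lowest to the highest pair) and in the shift of class shares (grey bar), for 6 of the 8 genes. The sublining, drawn as universal and other, holds 1542 CPM of the change of *Cthrc1*, and for *Fn1* the grey bar (1869 CPM) is longer than all red bars together (862 CPM).

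Cells outside the *Gdf5* lineage were tested in the same way. In Tom-GFP+ sublining fibroblasts 3 of the 8 genes rose, where 0.379% of 12654 genes tested were called higher. The steady state is 1 library, which takes its spread from the other groups. *Cthrc1* was at 25.1 CPM there and at 2952 and 1081 CPM after injury (6.30, SE 0.91, adjusted p = 0.0228), *Postn* at 150.3 and then 1696 and 1603 CPM (3.44, SE 0.38, adjusted p = 0.0209), and *Tnc* at 3.32 and then 255 and 140.0 CPM (5.87, SE 1.03, adjusted p = 0.0422). *Sparc*, at 4646 and then 12600.4 and 11098 CPM, missed the threshold (1.33, adjusted p = 0.069). Without Tom-GFP+ injured library 1 none of the 8 genes was called, and without either Tom+ steady-state library 1 was. Over all Tom-GFP+ stromal cells *Postn* (3.40, adjusted p = 0.0399) and *Cthrc1* (5.64, adjusted p = 0.0435) rose, where 0.375% of 14933 genes were called higher, and neither was called without either Tom-GFP+ injured library, either Tom+ steady-state library or Tom+ injured library 2. The sublining held 88.2% of the change of *Cthrc1*, 81.7% of that of *Postn* and 74.4% of that of *Tnc* over the Tom-GFP+ stroma. Its share of stromal UMIs there was 81.5% in the steady state and 76.8% and 61.5% after injury, so these parts largely follow its size.

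Between the lineages, none of the 8 genes passed the test after injury. In injured sublining fibroblasts edgeR called 0.0158% of genes, with 606 below 0.05 before adjustment and 64 called by DESeq2, and *Cthrc1* differed by 0.52 (SE 0.46) and *Tnc* by 0.62 (SE 0.49) on the log2 scale toward Tom+ cells. In injured lining fibroblasts it called 0.0103%, with 329 below 0.05 before adjustment and 5 called by DESeq2. With 4 and 2 libraries such misses do not show equal levels. Tom-GFP+ libraries came from mice that also gave Tom+ libraries, and which libraries share a mouse is not given in the sources used here. With the replicate number as a block, 0 of the 8 genes were called in either class, with *Cthrc1* at 0.95 (adjusted p = 0.267) and *Tnc* at 1.19 (adjusted p = 0.119) in the sublining. The injury effect itself differed between lineages for 0 genes by edgeR (224 below 0.05 before adjustment, and 2 called by DESeq2). Of the 8 genes, *Thbs1* came closest, at 2.45 (SE 0.68, unadjusted p = 0.00542, adjusted p near 1). It was at 36.8 CPM (100 UMIs) in the resting Tom-GFP+ sublining against 5.14 and 4.06 CPM in the resting Tom+ sublining, and at 50.7 and 29.5 CPM after injury (0.12, adjusted p = 0.918). The 9 early-response genes summed to 9278 CPM in the resting Tom-GFP+ library and to 5246 and 5699 CPM in the resting Tom+ ones. In the Tom-GFP+ injured libraries they summed to 4059 and 4603 CPM, and their part was not tested.

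A subset of injured sublining fibroblasts held UMIs of both *Lrrc15* and *Adam12*, markers of myofibroblast-like cells in other wounds. There were 562 such cells after injury and 0 in the steady state. Compared with the other 1186 injured sublining fibroblasts of the same libraries, with library as a block, they had more *Cthrc1* (1.07, SE 0.13, adjusted p = 0.000235), *Postn* (0.84, adjusted p = 0.000391), *Tnc* (1.04, adjusted p = 0.00116) and *Thbs2* (0.77, adjusted p = 0.000715), 4 of the 8 genes where 6.47% of 11182 were called higher. The cells were deeper, at a median of 21363.5 against 11867.5 UMIs, and the gate favours deep cells. With all cells thinned to the same depth *Cthrc1* (0.85), *Postn* (0.62) and *Tnc* (1.40) were still called and *Thbs2* (0.62, adjusted p = 0.064) was not. The rise was not confined to cells past this gate. *Lrrc15* and *Adam12* were low, at 125 and 75.7 CPM in pooled injured other sublining fibroblasts, so cells of the same kind can miss the gate. Whether the rise reached other kinds of cells therefore cannot be told from the rest. In injured Tom+ sublining fibroblasts without these cells, *Cthrc1* was at 3329.9, 1543, 1953 and 1239.6 CPM and *Tnc* at 356, 285, 139.5 and 138 CPM, all above the steady-state libraries.

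Further matricellular genes moved in both directions. Of 26 such genes, 23 were tested in Tom+ sublining fibroblasts, 4 rose and 3 fell, beside 4.83% higher and 7.15% lower over all genes, with a median of 0.18 against -0.03 over all genes. *Tnn*, tenascin-W, went from 0.185 to 159 CPM (mean, adjusted p = 0.0033), *Wisp1*, a CCN protein of the Wnt response, from 0.883 to 52.0 CPM (adjusted p = 0.00511), *Spp1*, osteopontin, from 12.7 to 425 CPM (4.98, adjusted p = 0.0209) and *Vcan*, the proteoglycan versican, from 134 to 329 CPM (1.25, adjusted p = 0.0402). *Fbln1*, fibulin-1, fell from 759 to 142 CPM (-2.46, adjusted p = 0.0234), *Ecm1* from 2284 to 1378 CPM (-0.77, adjusted p = 0.0426) and *Spock2*, a testican, from 6.18 to 0.681 CPM (-3.22, adjusted p = 0.0395). In the lining 2 of 23 rose and 2 fell, beside 1.15% and 2.49% over all genes, here named after their values were seen. *Wisp2* rose from 8.53 to 260.5 CPM (5.01, adjusted p = 0.00014) and *Spp1* from 49.9 to 480.1 CPM (3.12, adjusted p = 0.0273), and *Thbs4* fell from 887 to 50.9 CPM (-4.09, adjusted p = 0.00609) as did *Spock3* (adjusted p = 0.0196), which was at 0 UMIs in the 4 Tom+ injured lining libraries. The 2 Tom+ steady-state lining libraries stood far apart for *Spp1* (0 and 99.7 CPM) and *Thbs4* (337 and 1438 CPM). In Tom-GFP+ sublining fibroblasts 0 of 23 rose and 1 fell, *Smoc2* (-2.67, adjusted p = 0.025), beside 0.379% higher and 0.640% lower over all genes.

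Of 23 genes for receptors of these proteins, 20 were tested in Tom+ sublining fibroblasts, 5 rose and 2 fell, with a median of 0.11, where 4.83% of all genes were called higher and 7.15% lower. *Itga5* (25.2 to 78.9 CPM, 1.61, adjusted p = 0.0199) and *Itgb1* (182 to 314 CPM, 0.74, adjusted p = 0.0442), which pair as the fibronectin receptor, rose, as did the syndecan *Sdc1* (26.3 to 67.6 CPM, 1.31, adjusted p = 0.0112). *Ror2* (1.23, adjusted p = 0.0231) and *Fzd6* (1.81, adjusted p = 0.0345), non-canonical Wnt receptors with which CTHRC1 can form a complex, rose from low levels of 4.27 and 2.18 CPM. The collagen receptors *Ddr2* (-0.98, adjusted p = 0.0168) and *Itga11* (-0.84, adjusted p = 0.0403) fell. In the lining 0 of 18 passed edgeR's test (1.15% of all genes higher and 2.49% lower), with 3 at an unadjusted p under 0.05, and in Tom-GFP+ sublining fibroblasts 1 of 20 rose, *Sdc1* (2.55, adjusted p = 0.0209), where 0.379% of all genes did.

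Genes whose levels were most like each member were sought over 60 sums of a class in a library, among 14933 genes. These sums share libraries and depth, so the correlations of log2 CPM are descriptions. *C1qtnf6* was closest to *Cthrc1* (Pearson's r = 0.86), followed by *Tmem167* (0.85) and *Hdlbp* (0.84). *Csrp2* (0.83), *Adam12* (0.80) and *Lgals1* (0.78) were closest to *Postn*, and *Bgn* (0.77), *Wisp1* (0.77) and *Enpp1* (0.74) to *Tnc*. For *Sparc* they were *1500015O10Rik* (0.82), *Pdgfrl* and *Plod2* (both 0.81), and for *Thbs2* they were *Col5a1* (0.76), *S100a4* (0.74) and *Aspn* (0.73). The best match of *Thbs1* was *Arhgdib* (0.72), that of *Thbs3* was *Angptl1* (0.72) and that of *Fn1* was *Hexa* (0.79). No member was among the 3 closest genes of another member.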

How the data were processed

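The 8 genes, the marker lists and the gene lists were chosen with earlier results of these data known. Cells were sequenced with a 10x 5′ kit, and the authors made the deposited UMI counts per gene and barcode with Cell Ranger (3.0.2 in the headers of the newer files) on GRCm38. Barcodes under 500 genes or 1000 UMIs, or with over 10% of UMIs from mitochondrial genes, were left out. No doublet caller was run, and 106 cells passed the gates of more than 1 class. Cells were gated by the number of markers with a UMI (lining 4 of 6, osteoblast-lineage 2 of 7, chondrocyte-lineage 3 of 7, tenocyte-lineage 3 of 6 with *Tnmd*, mural 4 of 8, universal 4 of 7 with *Pi16* and *Dpp4*, or 5 of 7 with either), by at least 2 UMIs of *Thy1* and *Cd34* together for sublining, and by at least 5 *Prg4* UMIs per 10000 for *Prg4*+ cells.

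UMI counts were summed per class and library where at least 10 cells were present, and tested with edgeR 4.0.16 (TMM, quasi-likelihood, R 4.3.3), with all groups sharing the spread and Benjamini-Hochberg adjustment over all genes tested. Class differences had library as a block. DESeq2 1.42.0, Seurat 5.3.0 clusters (18, at 30 dimensions), thinning to 5000 UMIs (460 cells left out, 223 steady-state and 237 injured), stricter filters and gates, and leaving out each library were alternatives. The *Prg4*+, other sublining, tenocyte- and chondrocyte-lineage fits were added after the cell numbers were seen. All 8 genes are named, with other list genes where called, and the 3 genes of the highest Pearson correlation with each. Per the study, the libraries of a group came from separate mice, and Tom-GFP+ libraries from mice that also gave Tom+ cells. The fits take all libraries as independent. Intervals cover counting error only. Scripts were tested on simulated data.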

Additional observations from a re-analysis of the deposited data

Results flagged for a closer look

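In 3 of 64 groups of 4 Tom+ injured libraries tested, library 1 stood apart from the other 3 by Dixon's test. Chance flags about 1 group in 20 where groups are independent. These groups share the same 4 libraries and in part the same cells, so the flags cannot be weighed against that rate. Chance is not excluded. Its *Prg4*+ cells outside the lining gate held *Postn* at 1053 CPM, against 359.5 to 399 CPM in the others. Its universal fibroblasts held *Cthrc1* at 4717 CPM, against 1252 to 1645 CPM. Its stromal cells held *Fn1* at 4090.4 CPM, against 6918 to 7175 CPM. This is the deepest library, the one injured library with the older gene list, and the one with the smallest injured share of lining cells (16.01%), and the part of these in the 3 values was not tested.

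The injury effect differed between classes for 10 gene and class pairs, by edgeR's test of the difference. Against sublining fibroblasts it was lower in the lining for *Cthrc1* (-6.09), *Thbs1* (-5.09), *Tnc* (-3.87) and *Thbs2* (-1.96). It was lower in osteoblast-lineage cells for *Tnc* (-4.93) and *Cthrc1* (-2.47), and in *Prg4*+ cells outside the lining gate for *Thbs1* (-4.22), *Tnc* (-3.62) and *Sparc* (-1.003). Against other sublining fibroblasts it was smaller in universal fibroblasts for *Postn* (-1.31). These are log2 differences of log2 fold changes.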

How the results depend on the processing

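Of 2495 alternative values for single genes, 2300 stayed on their side of the threshold, 111 lost the call and 84 gained one, and 137 changed sign, none of them called. In Tom+ sublining fibroblasts *Cthrc1* (5.78 to 7.12) and *Postn* (2.39 to 2.93) were called under all 19 alternatives. Of the 8 genes, the numbers called moved as follows, and where no cause is given the cause was not tested. With no filter on low counts they were 5 in the lining, 6 in universal fibroblasts, 5 in *Prg4*+ cells outside the lining gate, 4 in osteoblast-lineage cells, 5 in Tom-GFP+ sublining, 3 in chondrocyte-lineage cells, 1 for the injury effect between lineages and 6 for *Prg4*+ cells against sublining. DESeq2 called 4 in the lining, 4 in Tom-GFP+ stroma, 5 in Tom-GFP+ sublining and 2 for universal against other sublining. Clusters gave 0 in the lining, 3 in osteoblast-lineage cells, 2 for lining against sublining and 2 for universal against other sublining. Stricter gates gave 3 in osteoblast-lineage cells and 0 for universal against other sublining, and thinned cells gave 2 there. The gene list format as a block gave 1 in the lining and 3 in other sublining fibroblasts. With that format block the injury effect in Tom+ cells rests on injured library 1, the one injured library with the older format. The replicate block gave 4 in the lining, 5 in universal fibroblasts, 4 in *Prg4*+ cells and 3 in osteoblast-lineage cells. Tom+ injured libraries 3 and 4 share their number with no steady-state library, so they add nothing to the injury effect there. Deviations of same-numbered steady-state and injured Tom+ libraries, which are different mice, correlated at r = 0.0466 and 0.133. Those of same-numbered injured Tom+ and Tom-GFP+ libraries did at 0.327 and 0.107, while Tom+ library 4 and Tom-GFP+ library 2 gave 0.428. Since no source ties a number to a mouse, the numbers were not taken as pairs.

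Leaving out 1 library gave 0 to 3 in Tom+ stroma, 0 to 3 in the lining, 2 to 6 in the sublining, 1 to 4 in universal and 2 to 5 in other sublining fibroblasts, 0 to 3 in *Prg4*+ cells, 0 to 1 in osteoblast-lineage cells, 0 to 2 in Tom-GFP+ stroma and 0 to 4 in Tom-GFP+ sublining. For differences between classes it gave 2 to 4 for lining, 1 to 3 for osteoblast-lineage and 1 to 5 for *Prg4*+ cells against sublining, and 0 to 2 for universal against other sublining. The lowest values came without a Tom+ steady-state library, or, for Tom-GFP+ cells, also without an injured Tom-GFP+ library or Tom+ injured library 2. Over all genes the count called in Tom+ sublining was 1516, with 150 to 2967 over the alternatives and 2344 by DESeq2. It was 354 (26 to 1179) in the lining, 1981 (135 to 2937) in Tom+ stroma and 129 (0 to 1729) in Tom-GFP+ sublining. With 2 and 1 steady-state libraries and 21 and 35 steady-state lining cells, misses in the lining and in Tom-GFP+ cells do not show equal levels.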
